A study of Mus musculus with 12 samples.

Results

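Actb and Tuba1b, a cytoplasmic actin gene and an alpha-tubulin gene, were the 2 cytoskeletal genes among the 15 probes that could be named on an array of 60930 non-control probes. They were chosen by identity: the probes whose listed RefSeq transcripts are those of mouse Actb (probe CUST_9_PI419532418, NM_007393.3) and Tuba1b (probe CUST_1_PI419532418, NM_011654.2). Each gene had 1 probe, printed at 20 separate spots on every array. RNA came from the left ventricles of 12 male C57BL/6J mice, 3 in each of 4 groups, collected 4 weeks after surgery. Per the labels the array carries probes for housekeeping genes as positive controls. The groups were wild-type sham, wild-type myocardial infarction (MI), Miat-knockout sham and Miat-knockout MI. Miat is a long noncoding RNA, and the knockout is described as systemic, with the making of the allele and of the infarct not given in the labels. Wild-type mice were 13 to 14 weeks old and knockout mice 15 to 16 weeks, so age and genotype cannot be told apart. Miat itself, and markers of heart cell types, were not analysed here, because the tables used here pair no further probe with a gene; the tissue and knockout labels were therefore not checked against their genes.

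Actb encodes beta-actin, which polymerises into the filaments that shape the cell cortex, drive migration and anchor adhesions. It is expressed in nearly all cells, while the contractile filaments of the adult cardiomyocyte are built from cardiac and skeletal actins. Tuba1b encodes an alpha-tubulin that pairs with beta-tubulin to form microtubules, the tracks of intracellular transport and of the mitotic spindle. In the heart both proteins are present in cardiomyocytes and in fibroblasts, endothelial cells and leukocytes, and both genes are widely used as loading or reference genes. Related actin and alpha-tubulin genes are close in sequence. The probe sequences were not used here, so signal from those relatives cannot be told apart from that of the named genes. In whole ventricle, a change in the number of cells of a type and a change in RNA per cell cannot be told apart either.

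No window upstream of Actb was available here, so nothing can be read from these letters about the 2 genes moving together. The region before the Tuba1b start is shown as a description of that gene alone. It holds the 250 bases before the start site, chr15:98934391-98934640 on the minus strand of GRCm38.p6, from RefSeq, with capitals marking matches to the GC box letters GGGCGG on either strand (CCGCCC when read in the direction printed).
Tuba1b: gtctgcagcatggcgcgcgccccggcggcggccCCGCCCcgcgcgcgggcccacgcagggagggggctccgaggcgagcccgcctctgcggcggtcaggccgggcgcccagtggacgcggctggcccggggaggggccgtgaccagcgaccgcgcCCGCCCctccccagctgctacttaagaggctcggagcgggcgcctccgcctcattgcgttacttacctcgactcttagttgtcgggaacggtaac
The window held 2 GC box matches, beginning 217 and 95 bases before the start, and GC boxes were present in 32.7% of 32851 mouse promoter windows of the same length. It held 0 matches to CCAAT (33.8% of windows), 0 to TATAAA (12.4%) and 0 to the CArG box, the letters bound by serum response factor (1.47%), each searched on both strands. A match is a description of the letters and not of binding.

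Every spot of both genes was well above background on all 12 arrays, and none was saturated. The Actb spots averaged 7268 to 9396 intensity units in wild-type sham and 13202 to 25739 in wild-type MI, over a local background of 21 to 33 units in those arrays. The 20 spots of a gene on 1 array agreed closely, with an SD of 0.015 to 0.043 on the log2 scale. The spread between animals was larger, with an SD of 0.09 to 0.39 over the 3 arrays of a group. The number of arrays limited the precision. Over the whole array, 82.7% to 88.1% of non-control spots exceeded background by the scanner's flag. Arrays were assigned to 2 slides from the scan times and array positions in the file headers, and slide is used in that sense throughout. Both MI groups were on slide 1 together with replicates 2 and 3 of knockout sham, and replicate 1 of that group was on slide 2 with all arrays of wild-type sham. Knockout sham replicate 1 stood apart from the other two arrays of its group in the ratio of the genes, and results that rest on it are given with and without it. Levels are given as log2 intensity minus the array's 75th percentile, and serve to compare arrays for 1 gene and not genes with each other.

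Wild-type ventricles were compared first, between infarction and sham surgery. Actb lay at 4.13, 3.97 and 4.32 in wild-type sham replicates 1, 2 and 3, and at 5.12, 5.82 and 5.17 in wild-type MI. All MI arrays were above all sham arrays, and MI replicate 2 was the highest of the 12 arrays. Actb rose 2.35-fold (95% interval 1.69 to 3.26), or by 1.23 on the log2 scale (SE 0.22), with an adjusted p of 0.0077 in limma (Benjamini-Hochberg, over 53956 probes). Tuba1b lay at 6.14, 6.02 and 6.46 in wild-type sham and at 6.96, 7.30 and 6.94 in wild-type MI, again without overlap and with MI replicate 2 the highest. It rose 1.81-fold (95% interval 1.43 to 2.30), or by 0.86 on the log2 scale (SE 0.15), with an adjusted p of 0.008 in limma. Both members thus passed in the same direction, in a comparison in which 25.1% of all tested probes were called, 12.2% higher and 12.9% lower. Arrays did not overlap, with MI higher, for 22.6% of probes. The rise in Actb was larger than 96.5% of all probes' differences and ranked 1 among the 15 named genes. That in Tuba1b was larger than 91.0% and ranked 5. Of the 13 other named genes 4 rose and 1 fell.

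**Figure D1:**
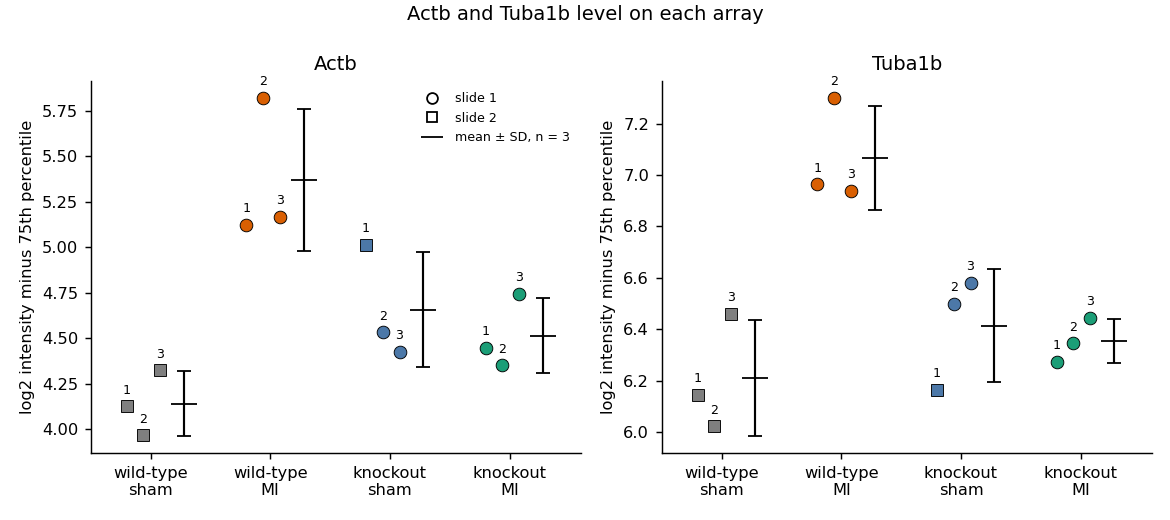
Level of Actb (left) and Tuba1b (right) on each of the 12 arrays, as log2 intensity minus the array's 75th percentile; numbers are replicates, circles slide 1, squares slide 2, and bars the mean ± SD (n = 3). The 3 wild-type MI arrays are the highest for both genes, and knockout sham replicate 1 is the highest of its group for Actb and the lowest for Tuba1b.

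The rise in Actb passed under each of the 13 alternatives in processing and model, with log2 differences of 0.95 to 1.77. The value of 1.77 came with slide as a block, where the slide difference is taken from the 3 knockout sham arrays. That rise also passed without any 1 of the 6 arrays (1.005 to 1.35). The rise in Tuba1b passed under 12 of 13; with slide as a block it was 0.48 (adjusted p = 0.22 in limma), a value that takes the slide difference from the 3 knockout sham arrays, since each wild-type group lay on a single slide. No wild-type value within a slide could be had.

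The bright end of the arrays moved with the groups, and both genes belong to it: Actb was brighter than 96.3% of the tested probes and Tuba1b than 98.6%. On the same log2 scale the 99th percentile of the probes averaged 6.84 in the wild-type sham arrays and 7.20 in the wild-type MI arrays, against 7.07 and 6.83 for the sham and MI arrays of the knockout. It was highest, at 7.30, in replicate 2 of wild-type MI, the array with the highest Actb and Tuba1b. In knockout sham the 99th percentile was 6.97, 7.08 and 7.15 in replicates 1, 2 and 3. Actb ran the other way there, at 5.01, 4.53 and 4.42, while Tuba1b rose with it, at 6.17, 6.50 and 6.58. Quantile normalization, which gives all arrays 1 distribution, left a rise of 0.95 in Actb (adjusted p = 0.013 in limma) and of 0.40 in Tuba1b (adjusted p = 0.029), and their part in the remaining values was not tested. In the authors' processed values the rises were 0.96 and 0.51.

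The same surgery in the Miat knockout gave no called difference for either gene. Actb lay at 5.01, 4.53 and 4.42 in knockout sham and at 4.45, 4.35 and 4.74 in knockout MI. The groups overlapped, and the highest array was a sham array, replicate 1. The log2 difference was -0.14 (SE 0.22, 95% interval -0.62 to 0.33, adjusted p = 0.88 in limma). Tuba1b lay at 6.17, 6.50 and 6.58 in knockout sham and at 6.27, 6.35 and 6.44 in knockout MI, so that the MI arrays fell between the lowest and the highest sham array. Its log2 difference was -0.06 (SE 0.15, 95% interval -0.40 to 0.28, adjusted p = 0.95 in limma). These intervals end below the wild-type differences of 1.23 and 0.86. Limma called 0 of all probes here (0%), with 4919 at an unadjusted p under 0.05, and the sign of either difference was not stable: under quantile normalization Actb was at 0.01 and Tuba1b at 0.11, and without knockout sham replicate 1, equal to the value within slide 1, they were at 0.04 and -0.19.

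The MI effects of the 2 genotypes were then set against each other. For Actb the knockout effect minus the wild-type effect was -1.37 on the log2 scale (SE 0.30, 95% interval -2.05 to -0.70, adjusted p = 0.046 in limma), which passed. For Tuba1b it was -0.92 (SE 0.22, 95% interval -1.40 to -0.43, adjusted p = 0.051), which did not pass. Of all tested probes 2.94% were called, 1.76% with the knockout effect lower and 1.19% higher, and of the 13 other named genes 1 was called lower and 0 higher. Both values lay near the threshold. All wild-type sham arrays lay on slide 2 and all wild-type MI arrays on slide 1, so a slide difference enters both values. With slide as a block, which rests on the 3 knockout sham arrays, Actb was at -1.73 (adjusted p = 0.018 in limma). The Actb call was lost under 6 of 12 alternatives: quantile normalization (-0.94, adjusted p = 0.10 in limma), the authors' values (-0.95, 0.097), centring on the 13 other named genes (-1.14, 0.058), no filter on dim probes (0.057), the replicate number as a block (0.086) and age as a covariate (-1.34, 0.16). It was also lost without any 1 array other than wild-type MI replicate 1, knockout sham replicate 3 or knockout MI replicate 3, at adjusted p-values of 0.052 to 0.12 and differences of -1.47 to -1.15. Without knockout sham replicate 1 the Actb value was -1.19 (adjusted p = 0.058 in limma). The Tuba1b value was -0.30 under quantile normalization (adjusted p = 0.29 in limma) and -0.38 by the authors' values (0.20), -0.67 with slide as a block (0.11) and -0.62 with age (0.18). It passed under median centring (0.048), normexp background correction (0.036) and a filter that kept probes well above background on all arrays of a group (0.047), and without knockout sham replicate 1 (-1.04, adjusted p = 0.040). The values with age take their slope from the groups other than knockout MI, where all mice were 16 weeks old.

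**Figure D2:**
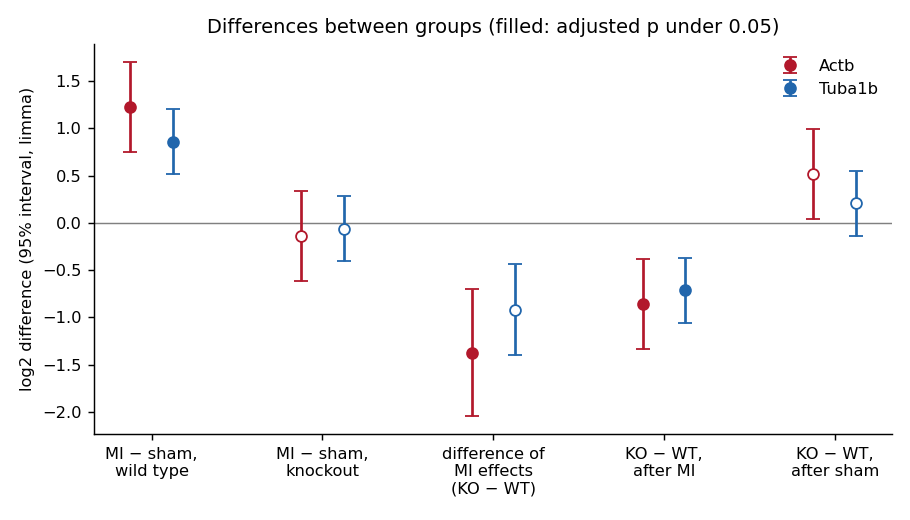
Log2 difference between groups for Actb (red) and Tuba1b (blue) in 5 comparisons, with 95% intervals from limma over all 12 arrays; filled points have an adjusted p under 0.05. Both genes were higher after MI in wild type and lower in the knockout than in wild type after MI, while both intervals for MI in the knockout span 0.

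After infarction the 2 genotypes differed in both genes. The 3 knockout MI arrays lay below the 3 wild-type MI arrays for Actb, 4.51 ± 0.21 against 5.37 ± 0.39, and for Tuba1b, 6.35 ± 0.09 against 7.07 ± 0.20 (SD, n = 3 each). The log2 difference, knockout minus wild type, was -0.85 for Actb (SE 0.22) and -0.71 for Tuba1b (SE 0.15), at adjusted p-values of 0.025 and 0.019 in limma, corresponding to 1.81-fold and 1.64-fold lower levels. In this comparison 22.4% of all tested probes were called, 10.6% lower and 11.8% higher, and 3 of the 13 other named genes were lower and 0 higher. Arrays did not overlap, with the knockout lower, for 18.2% of probes. All 6 arrays lay on slide 1. These values share the wild-type MI arrays with the first comparison, so they are not independent of it. Neither gene passed with quantile normalization (-0.54 and -0.28), by the authors' values (-0.54 and -0.35), with age as a covariate (-0.76 and 0.09), or in a fit of these 2 groups alone (adjusted p = 0.085 and 0.077 in limma). The same holds without wild-type MI replicate 2 (-0.63 and -0.60), knockout MI replicate 1 (-0.82 and -0.67) or knockout MI replicate 2 (-0.77 and -0.71). All knockout MI mice were 16 weeks old and the wild-type MI mice 13 to 14 weeks. The age slope therefore came only from wild-type sham, wild-type MI and knockout sham. In knockout sham it rests on replicate 1, the array on slide 2. The values with age are thus extrapolated between the ages of the genotypes.

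After sham surgery neither gene was called between the genotypes. Actb was 0.52 higher in the knockout on the log2 scale (SE 0.22, 95% interval 0.04 to 0.99, adjusted p = 0.26 in limma), and the 3 knockout arrays lay above the 3 wild-type arrays. Arrays did not overlap in this direction for 17% of all probes, while 0.0297% were called, 0.0222% higher and 0.00741% lower. Tuba1b differed by 0.21 (SE 0.15, 95% interval -0.14 to 0.55, adjusted p = 0.54), with overlapping arrays. Within slide 2, knockout sham replicate 1 alone against the 3 wild-type arrays gave 0.87 for Actb and -0.04 for Tuba1b. Without that array the differences were 0.34 and 0.33.

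In order of group means, Actb was lowest in wild-type sham (4.14), followed by knockout MI (4.51), knockout sham (4.66) and wild-type MI (5.37). Knockout MI and knockout sham overlapped, while the highest wild-type sham array (4.32) lay just below the lowest knockout MI array (4.35), a gap smaller than the SD of either group. The order for Tuba1b was the same, at 6.21, 6.35, 6.41 and 7.07, and the ranges of its 3 lower groups overlapped one another. For both genes every wild-type MI array lay above every array of the other groups, which was so for 9.28% of all tested probes.

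The ratio of the genes was then followed on each array as the Actb level minus the Tuba1b level. A scaling that adds 1 value to a whole array cancels in it, and since the 2 probes differ, only its changes between arrays can be read. In wild-type sham the log2 ratio was -2.02, -2.06 and -2.14, and in wild-type MI it was -1.84, -1.48 and -1.77. The MI arrays were all higher, by 0.37 in the mean (two-sided exact permutation test, p = 0.1, which is the lowest value possible with 3 arrays a group). Every sham array was on slide 2 and every MI array on slide 1, and with slide as a block, which rests on the 3 knockout sham arrays, the difference was 1.28. Actb therefore lay further from its sham level than Tuba1b on each MI array, with a group difference of 0.46 in the authors' values and 0.55 under quantile normalization, each at the same exact p.

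In knockout sham the ratio was -1.15, -1.97 and -2.16, and in knockout MI it was -1.83, -1.99 and -1.70. Replicates 2 and 3 of knockout sham lay near the wild-type sham arrays, while replicate 1 had the highest ratio of all 12 arrays. It was the only knockout sham array on slide 2, and its mouse was 16 weeks old against 15 weeks for the others of its group. The wild-type sham arrays on slide 2 had ratios between -2.14 and -2.02. For this 1 array slide, age and animal cannot be told apart. From sham to MI the mean knockout ratio differed by -0.08 (exact two-sided permutation p = 0.9), and 0.22 without replicate 1 of knockout sham (exact p = 0.3). Over both genotypes, with surgery labels permuted within each, the ratio was 0.14 higher after MI (exact two-sided permutation p = 0.47). Without knockout sham replicate 1 it was 0.30 higher (exact p = 0.015), so the outcome of that test rests on this array. The array was singled out by this same ratio. Its exact p was the lowest of the 12 found by leaving out 1 array each, which ran up to 0.83. It therefore cannot be read as a test of a change.

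Between the genotypes the ratio was compared within each surgery, where 3 arrays against 3 cannot give an exact p under 0.1, and over both. The knockout minus wild-type difference was -0.14 after MI (exact two-sided permutation p = 0.5) and 0.31 after sham surgery (exact p = 0.5), or 0.01 after sham without knockout sham replicate 1. Averaged over both surgeries it was 0.09 (exact p = 0.78). The difference of the MI effects in the ratio was -0.45 (exact two-sided permutation p = 0.195, genotype labels permuted within each surgery). With quantile normalization it was -0.64, and by the authors' values -0.57, each at an exact p of 0.05, and with slide as a block it was -1.06. It was -0.15 without knockout sham replicate 1 (exact p = 0.395) and -0.65 without replicate 3 of that group (exact p = 0.045). The exact p of 0.045 was the lowest of the 12 found by leaving out 1 array each, which ran up to 0.405, and was not adjusted for their number. Permuting genotype labels this way supposes no genotype effect after either surgery. These p-values for the difference of MI effects therefore do not test that difference alone.

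**Figure D3:**
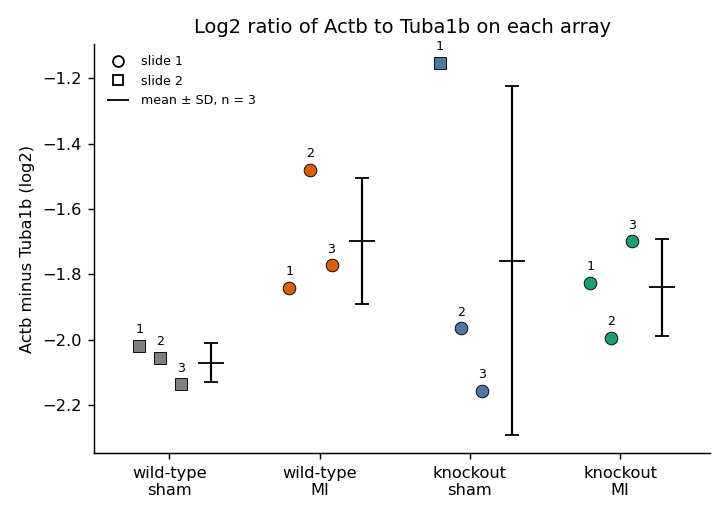
Log2 ratio of Actb to Tuba1b (Actb level minus Tuba1b level) on each array; numbers are replicates, circles slide 1, squares slide 2, and bars the mean ± SD (n = 3). The wild-type MI arrays lie above those of wild-type sham, and replicate 1 of knockout sham, at -1.15, lies above all other arrays.

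Within groups the sides to which the genes deviated were compared without a test. On 9 of 12 arrays Actb and Tuba1b lay on the same side of their group mean, for example by 0.45 and 0.23 in wild-type MI replicate 2 and by 0.18 and 0.25 in wild-type sham replicate 3. The exceptions were the 3 knockout sham arrays, where replicate 1 deviated by 0.36 in Actb and -0.25 in Tuba1b. The 3 deviations of a group are bound by their mean, so the 12 arrays are not separate comparisons. Other pairs of probes were not counted. The SD of Actb between replicates exceeded that of 67.6% to 79.3% of tested probes, depending on the group. For Tuba1b the corresponding share ranged from 25.6% in knockout MI to 81% in wild-type sham.

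Likeness to other named genes was measured as the root mean square difference of profiles over the 12 arrays, each profile centred on its own mean. Nearest to Actb was Ppia, the gene of the protein-folding enzyme cyclophilin A, at 0.13 log2 units. Gusb, a lysosomal glucuronidase gene, followed at 0.20 and Rpl13a, a ribosomal protein gene, at 0.25, while Tuba1b came next at 0.28. Nearest to Tuba1b were Hprt, a purine salvage enzyme gene (0.25), Gusb (0.26) and B2m, the beta-2-microglobulin gene (0.28), again with Actb next. Among all tested probes, 2.42% lay closer to Actb than Tuba1b did, and 9.31% lay closer to Tuba1b than Actb did. The median distance of a probe was 0.58 from Actb and 0.46 from Tuba1b. A profile without any change over the arrays would lie 0.50 from Actb and 0.36 from Tuba1b. The named genes nearest to Tuba1b were thus only moderately closer to it than a flat profile.

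**Figure D4:**
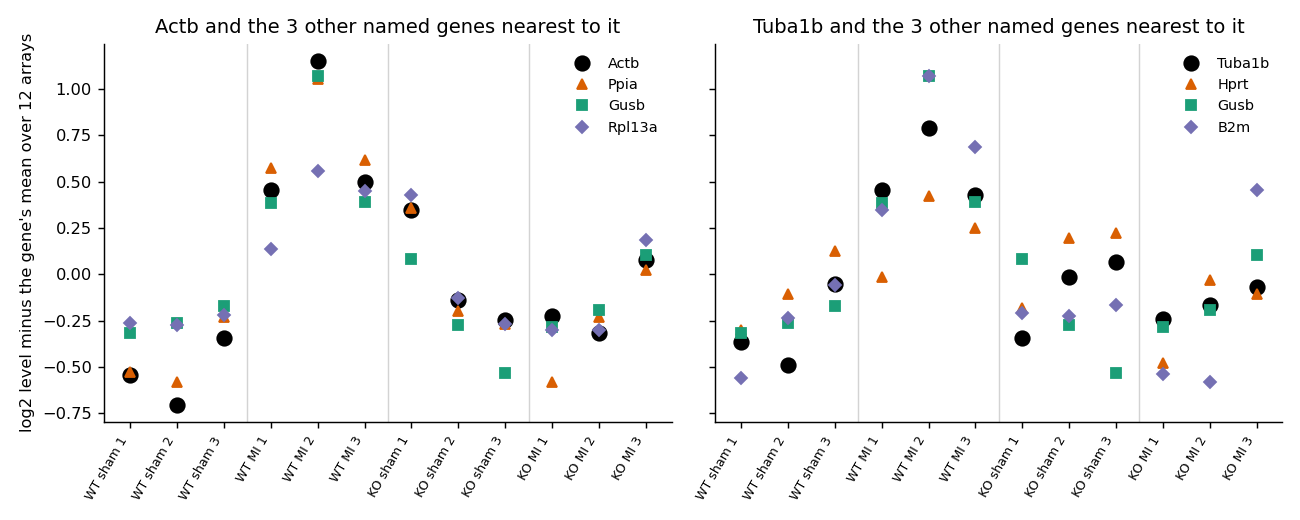
Levels of Actb (left) and Tuba1b (right), black circles, and of the 3 other named genes nearest to each, on each of the 12 arrays, as log2 level minus the gene's mean over the arrays. Ppia, at 0.13 log2 units from Actb, lies close to it on most arrays, including knockout sham replicate 1, and both members peak in wild-type MI replicate 2.

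**Figure D5:**
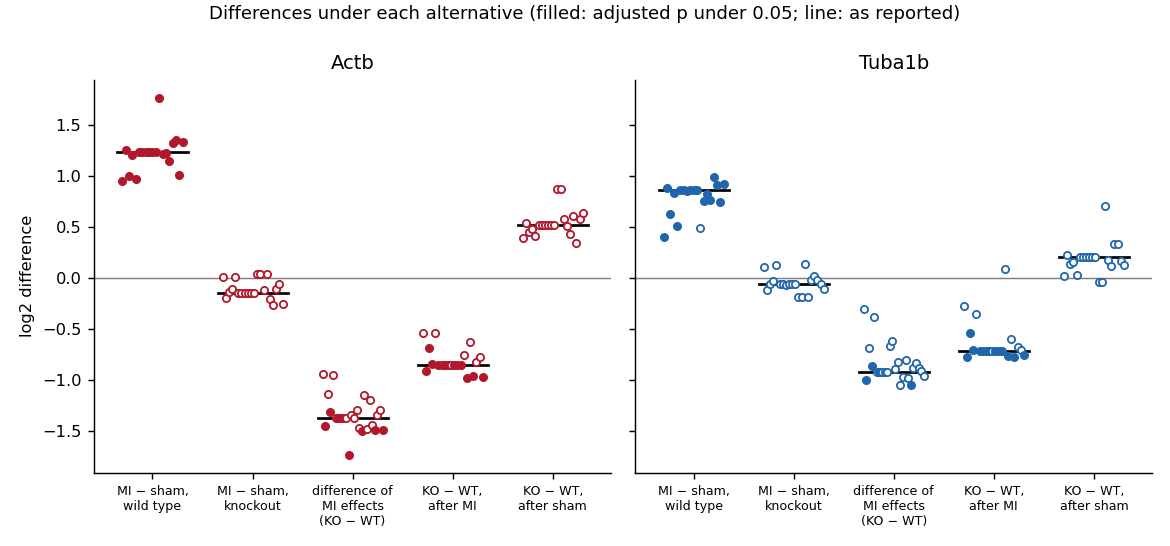
Log2 differences of Actb (left) and Tuba1b (right) in the 5 comparisons under each alternative in processing, model or arrays used; the black line is the value as reported and filled points have an adjusted p under 0.05. Every Actb value for MI in wild type is filled and lies between 0.95 and 1.77, while values for MI in the knockout lie on both sides of 0 and are all open.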

How the data were processed

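Agilent Feature Extraction (version 11.0.1.1, per the submitters' processing notes) gave the deposited linear spot intensity, with background subtracted and spatial trends removed per the file headers. Quality flags form the other columns, per the file headers. The table of the authors' values is taken as log2, since it correlated at 0.9988 or more with log2 scanner signal; its columns had medians of 6.914 to 6.915, and the sources used here name no normalization for it. Ribosomal RNA was removed and the rest labelled with Cy3 by random priming, per the labels' protocols.

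From the log2 processed signal, the 75th percentile of an array's non-control spots was subtracted, and spots of a probe were averaged without spots flagged as outliers (35 to 66 per array). Probes were kept if well above background on at least 3 of 12 arrays; 15 named negative controls and 78 probes lacking a value on some array were left out, which left 53956. Groups were compared with limma 3.58.1 (lmFit, eBayes) in R 4.3.3 in 1 fit over 12 arrays, and called means an adjusted p under 0.05 (Benjamini-Hochberg). Ratio differences were tested by exact permutation of array labels, two-sided. Ventricles are described as independent, and slides were read from the scan times and array positions in the headers. Normexp used the median spot signal, with an offset of 50. Symbols came from a RefSeq table through 15 transcript accessions, all matched. The rule for named genes was the 2 members and, for each, the 3 nearest other named genes; planned lists of cytoskeletal genes and cell type markers were not run for want of named probes. Members, lists and tests were chosen with earlier results of these data known. Figures were drawn with matplotlib 3.10.9.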

Additional observations from a re-analysis of the deposited data

Results flagged for a closer look

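The MI effect on Actb differed between the genotypes by a test of the difference itself. The log2 difference was -1.37 (knockout minus wild type, adjusted p = 0.046 in limma). Over its 12 alternatives other than leaving out arrays, the adjusted p in limma was 0.018 to 0.16, and 6 of them passed. Of 12 fits that each left out 1 array, 3 passed. Wild-type sham and wild-type MI arrays lay on different slides, so a slide difference enters this value. All 3 wild-type MI arrays lay above all wild-type sham arrays, as was so for 22.6% of all tested probes, while the knockout groups overlapped. Groups of 3 arrays are too small for a formal search for single outlying samples, so none was made. Knockout sham replicate 1 was singled out by its ratio, without a test.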

How the results depend on the processing

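Of 206 values for single genes under alternatives, 161 kept their direction and side of the threshold, 29 lost a call, 4 gained one and 12 changed sign. Of 105 ratio values, 94 were counted as unchanged, a count partly fixed by the design. Ratio values between 2 groups could not pass 0.05 in any setting, since their exact permutation p cannot go under 0.1. Those with slide as a block had no p and were judged by direction and size alone. The cause was not tested. The Actb difference of MI effects did not pass under quantile normalization (-0.94), centred on the 13 other named genes (-1.14), by the authors' values (-0.95), without a filter (-1.37, adjusted p = 0.057 in limma) or with age as a covariate (-1.34). Tuba1b passed there under median centring (-0.996), normexp (-0.86) and the filter by group (-0.92), and not under the other 9 alternatives, with -0.30 after quantile normalization and -0.38 by the authors' values. For knockout against wild type after MI, Actb was -0.54 under quantile normalization and -0.54 by the authors' values, -0.76 with age and -0.85 in a fit of the groups alone, and Tuba1b was -0.28, -0.35, 0.091 and -0.71 in that order. For MI in the knockout, Actb turned to 0.014 with quantile normalization or the authors' values and to 0.035 with slide as a block or within slide 1, and Tuba1b to 0.11, 0.13 and, with age, 0.14. After sham surgery Tuba1b was -0.043 with slide as a block and within slide 2, an alternative added after the data were seen. The rise of Tuba1b in wild type was 0.48 with slide as a block. With that block the ratio differences were 1.28 for MI in wild type, 0.22 in the knockout (also within slide 1), -1.06 for the difference of MI effects, 0.92 after sham, 0.75 for MI over both genotypes and 0.39 for genotype over both surgeries.

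Leaving out 1 array gave, for Actb, -1.50 to -1.15 for the difference of MI effects, -0.98 to -0.63 after MI and -0.26 to 0.035 for MI in the knockout. For Tuba1b these were -1.04 to -0.80, -0.78 to -0.60 and -0.19 to 0.022. Ratios ranged from -0.65 to -0.15 for the difference of MI effects, -0.066 to 0.18 for genotype over both surgeries, -0.28 to 0.22 for MI in the knockout and 0.045 to 0.30 for MI over both genotypes.

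No pairing of the samples by replicate number was seen, though this check cannot exclude one. Correlations of deviations between same-numbered arrays ran from -0.33 to 0.29 (median 0.026), against -0.30 to 0.31 for other pairs (median -0.058). With replicate number as a block, the Actb difference of MI effects stayed at -1.37 and no longer passed (adjusted p = 0.086 in limma), and no other call on the 2 genes changed. The ratio differences kept their values under the block, at exact p-values of 0.25 for MI in wild type, the smallest that 3 pairs can give, and 0.31 for the difference of MI effects.

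Calls over all probes were 13558 for MI in wild type (3514 to 17776 over alternatives), 0 for MI in the knockout (0 to 2), 1588 for the difference of MI effects (0 to 4811), 12096 after MI (0 to 16040) and 16 after sham (0 to 3876). Higher and lower calls for MI in wild type were 6586 and 6972, but 5490 and 8796 after quantile normalization, 5502 and 8754 for the authors' table and 3727 and 14049 when centred on the named genes. For the difference of MI effects they were 640 and 948, but 471 and 249, 510 and 278, and 861 and 285 in that order, 495 and 1280 after median centring, and 1219 and 3592 with normexp. After MI they were 6375 and 5721, but 9429 and 3505 when centred on the named genes, a scaling that moved the median of all probes to -0.27, 0.26 and 0.22 in these 3 comparisons; under normexp the median was -0.10 in the second. Every spot of both genes was well above background.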

Other observations

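Knockout sham replicate 1 differed from the other two arrays of its group in some named genes and not in others. Ppia lay at 6.78 there against 6.22 and 6.15, Rpl13a at 2.92 against 2.36 and 2.22, and Gusb at 1.498 against 1.14 and 0.88, each higher as Actb was. Hprt lay at 4.12 against 4.50 and 4.52, lower as Tuba1b was, and B2m at 6.07 lay between 6.06 and 6.12. In knockout MI, replicate 3 was the highest array for Actb, Tuba1b, B2m, Gusb, Ppia and Rpl13a, and B2m showed the widest gap, at 6.74 against 5.75 and 5.70; Hprt, at 4.195, lay between the other two.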
